A study of Mus musculus with 6 samples.

Results

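The 10 genes described here encode interleukin 1 and interleukin 36 cytokines of the epidermis together with their antagonists, the IL-36 receptor chain and related family members. They were found by matching the Ensembl identifiers of the expression files to the symbols Il1a, Il1b, Il1rn, Il1f5, Il1f6, Il1f8, Il1f9, Il1rl2, Il18 and Il33. All 10 were present once among the 55487 genes of each file. Newer names exist for the IL-36 genes: Il1f5 is Il36rn, Il1f6 is Il36a, Il1f8 is Il36b and Il1f9 is Il36g. Messenger RNA was measured in 3 Znf750_cKO libraries and 3 Control libraries of back skin epidermis from newborn mice at postnatal day 0. Znf750_cKO stands for the knockout of Znf750, whose mouse symbol is Zfp750 and whose product is a transcriptional regulator of keratinocyte differentiation. The sources used here do not give the strain, the driver of the deletion, the Control genotype or the number of animals behind a library. The p-values therefore measure the spread between these libraries, which may be partly technical. The epidermis was lifted off after dispase, dissociated with trypsin, and no sorting is mentioned, so cells other than keratinocytes can be present.

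IL-1 alpha and IL-1 beta are released by stressed or dying cells and signal through the receptor encoded by Il1r1, and the antagonist encoded by Il1rn occupies the same receptor without signalling. The IL-36 cytokines are close relatives made mainly by epithelial cells. The agonists encoded by Il1f6, Il1f8 and Il1f9 act through the receptor chain encoded by Il1rl2 with the accessory chain encoded by Il1rap, and Il1f5 encodes the antagonist of that receptor. Loss of the IL-36 antagonist in humans is known as a cause of generalized pustular psoriasis.

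The values are FPKM as deposited by the authors, fragments per kilobase of transcript, scaled to library size, so levels of different genes within a library are on a per-length scale. Steps in the FPKM of short genes placed the depth between 22.9 and 35.4 M reads (megareads) in Znf750_cKO and between 21.5 and 28.6 M reads in Control libraries. One read on a transcript of 1 kilobase was worth 0.0283 to 0.0464 FPKM. Zfp750 stood at 0.99, 0.83 and 1.47 FPKM in Znf750_cKO and at 44.8, 32.0 and 34.9 FPKM in Control libraries, so the targeted gene separated the groups (log2 change -4.19, limma adjusted p = 4.6e-05). The keratinocyte markers Krt5, Krt14, Krt1 and Krt10 were abundant in every library. Of the Langerhans cell and macrophage lists, 5 of 7 and 7 of 8 markers passed the filter on low values and fell. The 5 do not include Cd207, which was at most 0.06 FPKM in every library, Control included. Over all tested genes, 3.10% were called lower. Of the markers that fell, 3 macrophage markers were under 1 FPKM in every Znf750_cKO library, so that they passed the filter through Control alone and could only fall. The most abundant markers of the lists were Ctss, at 2.77 to 3.55 FPKM in Znf750_cKO and 25.5 to 42.3 FPKM in Control, and C1qb, at 3.48 to 4.29 FPKM in Znf750_cKO and 24.8 to 33.7 FPKM in Control. Most neutrophil markers were at or near 0: Ly6g was listed at 0 in all 6 libraries, and Camp, Ngp and Retnlg were at most 0.14 FPKM. An exception was Cxcr2, the 1 marker of that list that passed the filter. It had 1.35, 1.01 and 8.28 FPKM in Znf750_cKO libraries and 1.55, 1.97 and 6.09 FPKM in Control libraries. Lower calls were also found for Hba-a2 among 3 tested red blood cell markers and Ptprc among 3 tested epidermal T cell markers. Chga was called lower among 2 tested Merkel cell markers. The summed FPKM of the 5 red blood cell markers was 6.92 to 11.1 in Znf750_cKO and 19.6 to 52.7 in Control. No marker was called in the neutrophil, mast cell, fibroblast, endothelial or melanocyte lists.

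Some of the protein-coding genes of the family lie side by side on the plus strand of chromosome 2 (GRCm38, GENCODE M21), in the order Il1f8, Il1f9, Il1f6, Il1f5, Il1f10 and Il1rn. Il1f6 (ENSMUSG00000026984) spans 24215418 to 24225702 and Il1f9 (ENSMUSG00000044103) spans 24186476 to 24193568. Il1a (ENSMUSG00000027399) lies farther along the same chromosome on the minus strand, at 129299610 to 129309972. The first 60 coding bases of the IL-36 genes are shown because the results turn on telling these relatives apart, with the start codon in capitals (GENCODE M21 transcripts, GRCm38):
Il1f6: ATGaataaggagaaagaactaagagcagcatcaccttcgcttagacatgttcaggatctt
Il1f9: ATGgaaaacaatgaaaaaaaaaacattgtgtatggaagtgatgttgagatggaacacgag
Il1f8: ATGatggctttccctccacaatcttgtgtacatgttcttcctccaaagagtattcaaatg
Il1f5: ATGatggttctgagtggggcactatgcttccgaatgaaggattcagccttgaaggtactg
None of the 882 windows of 100 bases in annotated Il1f6 transcripts, the length of a read, occurred in a transcript of another gene on either strand. Il1f9 shared 51 of 1549 such windows with Gm15983, which lies elsewhere, on chromosome 16, and stood at 0.23 FPKM or less in every library. Il1a shared 126 of 1875 with Gm14023, a transcript on the opposite strand at 0.86 FPKM or less, and the other 7 members shared none. Reads of one IL-36 gene could thus be told from those of the others at full read length.

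Among the IL-36 agonists, Il1f6 rose and Il1f9 stood higher without passing the test, while Il1f8 showed no shift beyond its spread. Il1f6, which encodes IL-36 alpha, had 37.1, 34.9 and 44.6 FPKM in Znf750_cKO libraries, against 6.49, 16.8 and 6.82 FPKM in Control libraries. Every Znf750_cKO library was above every Control library, and Control replicate 2 stood above the other Control libraries. The means were 38.8 ± 5.09 FPKM in Znf750_cKO and 10.0 ± 5.85 FPKM in Control (SD, n = 3 each), a 3.87-fold difference. In limma on log2(FPKM + 1), a scale that understates changes of low genes, the log2 change was 1.97 (SE 0.35, Benjamini-Hochberg adjusted p = 0.043 over 13688 tested genes). With the replicate number as a block the adjusted p was 0.071, so this call did not hold there. It held in 1 of 6 fits that left out a single library, the one without Control replicate 2 (log2 change 2.37, limma adjusted p = 0.0014). In the other 5 the log2 change was between 1.75 and 2.04 and the adjusted p between 0.102 and 0.149.

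Il1f9 encodes IL-36 gamma, the agonist most widely reported in inflamed skin. It had 41.2, 35.9 and 43.7 FPKM in Znf750_cKO libraries, against 17.7, 31.9 and 17.4 FPKM in Control libraries. The groups did not overlap, and Control replicate 2 was again the highest Control library, close to the lowest Znf750_cKO library. The log2 change was 0.87 (95% interval 0.33 to 1.42, limma adjusted p = 0.088). Without Control replicate 2 it was 1.15 with an adjusted p of 0.013, and in the other 5 fits that left out a library it was 0.73 to 0.95 with adjusted p-values of 0.136 to 0.232. Il1f8, which encodes IL-36 beta, had 19.7, 10.6 and 25.9 FPKM in Znf750_cKO libraries, against 14.9, 25.7 and 12.9 FPKM in Control libraries. These ranges lay over each other, and the log2 change was 0.05 with a 95% interval of -0.93 to 1.02 (limma adjusted p = 0.97), an interval that holds changes of nearly 1 log2 unit in either direction.

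**Figure D1:**
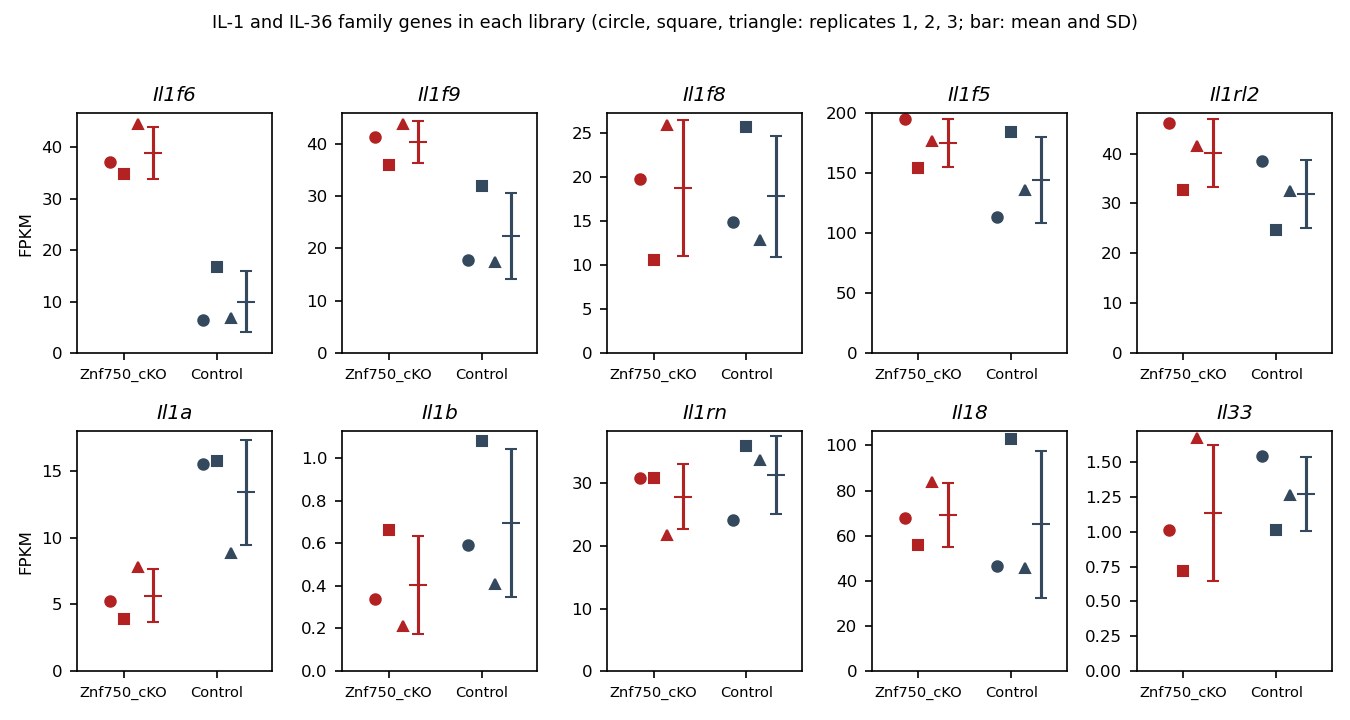
FPKM of each member in 3 Znf750_cKO libraries (left in each panel) and 3 Control libraries (right), with circles, squares and triangles for replicates 1, 2 and 3 and bars for the mean and SD; vertical axes start at 0 and differ between panels. Il1f6 and Il1f9 were higher and Il1a lower in all 3 Znf750_cKO libraries than in any Control library, and the other 7 genes overlapped.

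The antagonist and the receptor of the IL-36 system differed less than the agonist Il1f6. Il1f5, the IL-36 antagonist and the most abundant of the 10 genes, had 195, 155 and 177 FPKM in Znf750_cKO libraries and 114, 184 and 136 FPKM in Control libraries. The groups overlapped because Control replicate 2 lay above 2 of the Znf750_cKO libraries (log2 change 0.30, 95% interval -0.12 to 0.72, limma adjusted p = 0.40). Il1rl2, the IL-36 receptor chain, had 46.2, 32.7 and 41.4 FPKM in Znf750_cKO libraries and 38.4, 24.8 and 32.6 FPKM in Control libraries. In both groups replicate 1 was highest and replicate 2 lowest, and the limma log2 change was 0.33, with a 95% interval of -0.10 to 0.76 and an adjusted p of 0.36.

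Set against its antagonist, the summed FPKM of the IL-36 agonists Il1f6, Il1f8 and Il1f9 came to 50.3%, 52.5% and 64.5% of Il1f5 in Znf750_cKO libraries. In Control libraries it came to 34.4%, 40.4% and 27.3% of Il1f5, and the groups did not overlap. Il1f6 supplied 37.8%, 42.8% and 39.0% of the agonist FPKM in Znf750_cKO libraries, against 16.6%, 22.6% and 18.4% in Control libraries. The ratio of Il1f6 to Il1f9, neighbours on the chromosome, was 0.90, 0.97 and 1.02 in Znf750_cKO libraries, against 0.37, 0.53 and 0.39 in Control libraries. Control replicate 2, the Control library with the highest level of each agonist, also had the highest share of Il1f6. These ratios combine members and are given without a test.

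**Figure D2:**
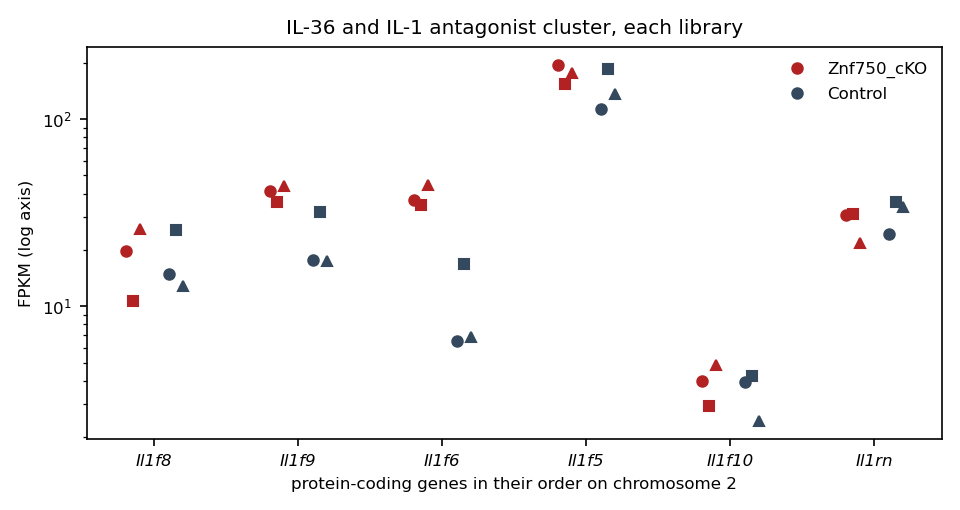
FPKM on a log axis of the 6 protein-coding genes of the chromosome 2 cluster, in chromosomal order, with Znf750_cKO libraries left of Control libraries at each gene and circles, squares and triangles for replicates 1, 2 and 3. The groups stand apart at Il1f9 and Il1f6 and overlap at Il1f8, Il1f5, Il1f10 and Il1rn.

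Along the cluster, the log2 changes were 0.05 at Il1f8, 0.87 at Il1f9, 1.97 at Il1f6, 0.30 at Il1f5, 0.12 at Il1f10 and -0.16 at Il1rn. Il1f10, a further family member named IL-38 in humans, was low, with 3.99, 2.92 and 4.85 FPKM in Znf750_cKO libraries and 3.92, 4.23 and 2.43 FPKM in Control libraries. Between Il1f6 and Il1f5, the unit annotated as Gm37703 stood at 0.18 FPKM or less in every library, and the pseudogene Gm13409 at 0.19 to 0.73 FPKM.

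The classical IL-1 genes did not follow Il1f6. Il1a, which encodes IL-1 alpha, an alarmin stored in keratinocytes, had 5.27, 3.90 and 7.79 FPKM in Znf750_cKO libraries, against 15.5, 15.8 and 8.89 FPKM in Control libraries. Every Znf750_cKO library was below every Control library, with Znf750_cKO replicate 3 and Control replicate 3 nearest to each other. Il1a averaged 5.65 ± 1.97 FPKM in Znf750_cKO and 13.4 ± 3.91 FPKM in Control (SD, n = 3 each). Its log2 change was -1.12 (95% interval -1.78 to -0.45) and its limma adjusted p of 0.078 did not pass. Without replicate 3 of both groups the log2 change was -1.59 (adjusted p = 0.0085), and without Znf750_cKO replicate 3 alone it was -1.34 (adjusted p = 0.049). In the other 5 fits that left out a library it was -1.37 to -0.92, with adjusted p-values of 0.0508 to 0.236.

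Il1b encodes IL-1 beta, a cytokine mostly of myeloid cells, and was close to the detection limit. It had 0.34, 0.66 and 0.21 FPKM in Znf750_cKO libraries and 0.59, 1.08 and 0.41 FPKM in Control libraries, about 15, 22 and 6 reads against 21, 29 and 12 reads if all came from its longest transcript. It was the member that did not reach 1 FPKM in 3 libraries and so was not tested. With no filter on low values its log2 change was -0.26 (limma adjusted p = 0.72). Myeloid markers moved in the same samples: the summed FPKM of the 8 macrophage markers was 13.5 to 14.9 in Znf750_cKO and 74.6 to 120 in Control, and that of the 7 Langerhans cell markers was 11.2 to 13.9 in Znf750_cKO and 75.9 to 133 in Control. The Langerhans cell marker Cd207 was at most 0.06 FPKM and the macrophage marker Cd163 at most 0.02 FPKM in every library. The part of these cells in the levels of Il1b and Il1a was not tested, and in such bulk samples fewer cells of a type and less RNA per cell cannot be told apart.

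Il1rn, the IL-1 receptor antagonist, had 30.8, 30.95 and 21.8 FPKM in Znf750_cKO libraries and 24.2, 35.9 and 33.8 FPKM in Control libraries. The groups overlapped (log2 change -0.16, 95% interval -0.60 to 0.28, limma adjusted p = 0.69). The summed FPKM of Il1a and Il1b came to 18.2%, 14.7% and 36.7% of Il1rn in Znf750_cKO libraries, against 66.6%, 47.0% and 27.5% in Control libraries. This ratio overlapped between the groups, because replicate 3 was the highest Znf750_cKO library and the lowest Control library.

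**Figure D3:**
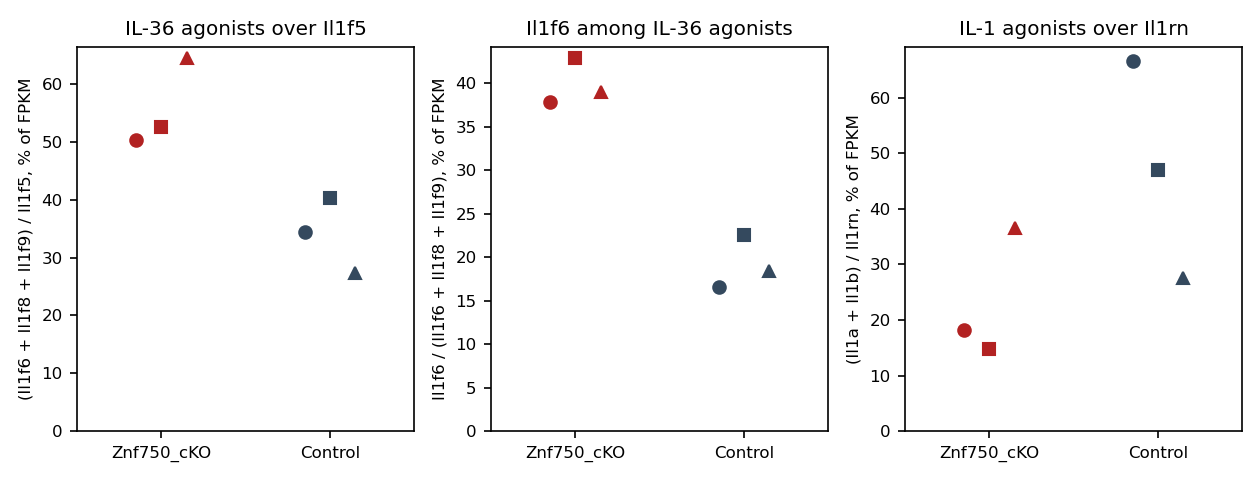
Ratios of summed FPKM, in percent, in 3 Znf750_cKO libraries (left) and 3 Control libraries (right), with circles, squares and triangles for replicates 1, 2 and 3. The IL-36 agonist to Il1f5 ratio and the share of Il1f6 among agonists do not overlap between groups, whereas the IL-1 to Il1rn ratio does.

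The remaining members are alarmins of the same family. Il18, whose product is kept as an inactive precursor in keratinocytes, had 67.9, 55.7 and 83.8 FPKM in Znf750_cKO libraries and 46.6, 102.8 and 45.5 FPKM in Control libraries. Control replicate 2 exceeded all Znf750_cKO libraries while the other Control libraries lay below them, and the log2 change was 0.18 with a 95% interval of -0.71 to 1.06 (limma adjusted p = 0.85). Il33, a nuclear alarmin, was low, at 1.01, 0.72 and 1.67 FPKM in Znf750_cKO libraries and 1.54, 1.01 and 1.26 FPKM in Control libraries. Its groups overlapped (log2 change -0.11, 95% interval -0.61 to 0.39, limma adjusted p = 0.84).

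**Figure D4:**
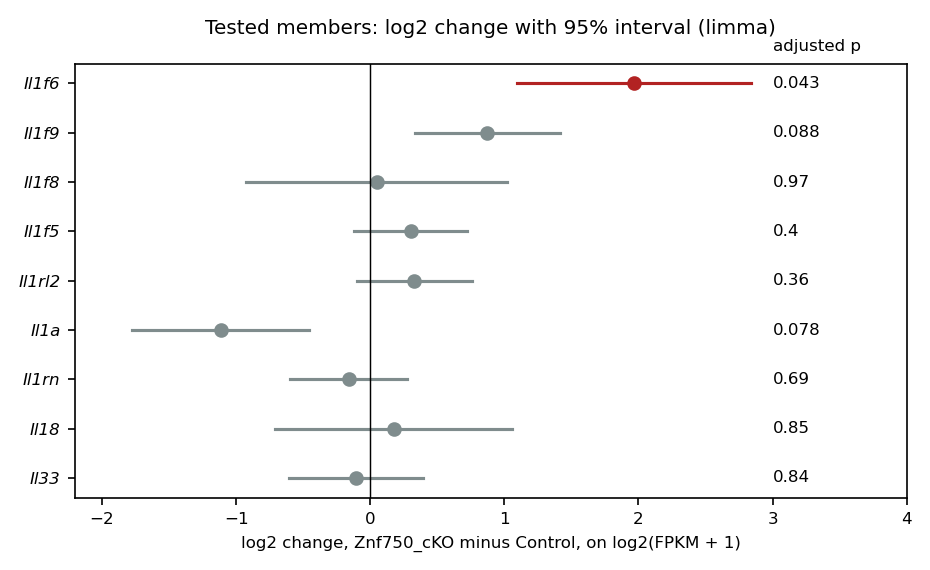
Log2 change of the 9 tested members, Znf750_cKO minus Control on log2(FPKM + 1), with its 95% interval and the limma adjusted p at the right. Il1f6 passed at an adjusted p of 0.043, and the intervals of Il1f9 and Il1a exclude 0 without passing the adjustment over all genes.

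In all, 1 of the 9 members tested was called, against 4.22% of all tested genes (1.11% higher and 3.10% lower in Znf750_cKO). The call was a rise, that of Il1f6, and 0 members fell. Without Znf750_cKO replicate 3, or without replicate 3 of both groups, the single call was instead the fall of Il1a, since Il1f6 did not pass there (adjusted p = 0.114 and 0.202). Median-ratio scaling moved the split of calls over all genes to 215 higher and 307 lower, from 152 higher and 425 lower as deposited. The groups did not overlap in 3 of the 9, against 28.0% of all tested genes. The median log2 change of the 9 was 0.18, against -0.08 over all tested genes. These shares describe the list and do not set it apart from other genes.

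Ranked by mean FPKM, Il1f5 and Il18 were first and second in both groups and stood apart from the next gene in every library. In Znf750_cKO libraries Il1f9, Il1rl2 and Il1f6 followed with overlapping levels, at ranks 3, 4 and 5, then Il1rn and Il1f8, which also overlapped. In Control libraries Il1f6 was at rank 8, and the genes from Il1rl2 at rank 3 to Il1f6 at rank 8 each overlapped the next. Il33 and Il1b closed the order in both groups. Within groups the members also varied together by library: Control replicate 2 had the highest Control value of 8 of the 10 genes, and Znf750_cKO replicate 2 had the lowest Znf750_cKO value of 8 of the 10.

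Il1f6, the member called, has no promoter in the RefSeq table used here. Promoter sequence was compared for the other members whose groups did not overlap, Il1a and Il1f9. Neither had passed the test (limma adjusted p = 0.078 for Il1a and 0.088 for Il1f9). The 250 bases before each annotated start (RefSeq, GRCm38.p6) are shown because these genes stood in opposite directions, with capitals for matches to the motifs named next. Il1a lies at chr2:129309973-129310222 on the minus strand and Il1f9 at chr2:24186226-24186475 on the plus strand:
Il1a: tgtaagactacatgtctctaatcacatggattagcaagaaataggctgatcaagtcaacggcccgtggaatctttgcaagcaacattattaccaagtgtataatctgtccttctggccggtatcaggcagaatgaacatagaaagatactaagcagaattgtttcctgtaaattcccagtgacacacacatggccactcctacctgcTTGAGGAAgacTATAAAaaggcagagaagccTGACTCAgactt
Il1f9: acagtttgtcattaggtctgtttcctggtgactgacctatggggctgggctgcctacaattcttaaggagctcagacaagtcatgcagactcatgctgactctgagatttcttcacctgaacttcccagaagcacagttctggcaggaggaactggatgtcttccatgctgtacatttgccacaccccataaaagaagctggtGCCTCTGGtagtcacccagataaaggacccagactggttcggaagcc

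The motifs searched on both strands were TGANTCA for AP-1, TTNCNNAA for C/EBP, TATAAA for the TATA box, CCNNAGGC for ZNF750 and the NF-kB consensus. Il1a held a C/EBP match 43 bases, a TATA box 32 bases and an AP-1 match 12 bases before its start, counted to the first base of each match. Il1f9 held a single match, to the ZNF750 motif, 47 bases before its start. Over the 32851 promoters of the table, 6.75% held an AP-1, 36.8% a C/EBP, 12.4% a TATA box, 20.4% a ZNF750 and 7.25% an NF-kB match. Of the 9 members with a promoter there, 3 held an AP-1, 6 a C/EBP, 5 a TATA box, 4 a ZNF750 and 0 an NF-kB match in at least 1 of their promoters, of which Il1rn has 3 and Il1f5 and Il33 have 2 each. The TATA box matches of Il1rl2 and Il18 were on the opposite strand, 166 and 175 bases before the start. A match is a run of letters and not a bound site, and these shares are given as a description.

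The receptors and decoys that the cytokines share showed no call. Of 10 listed genes 5 passed the filter on low values, 0 changed in limma and 1 had an unadjusted p under 0.05, against 21.3% of all tested genes, with a median log2 change of -0.08. Il1rap, the accessory chain of both receptors, had 19.1, 16.1 and 19.1 FPKM in Znf750_cKO libraries and 18.6, 13.9 and 17.4 FPKM in Control libraries (log2 change 0.12, limma adjusted p = 0.68). Sigirr, a receptor that dampens IL-1 signalling and that was picked here after its values were seen, was lower in every Znf750_cKO library, at 1.59, 1.34 and 1.06 FPKM against 2.29, 2.94 and 2.23 FPKM in Control (limma adjusted p = 0.11).

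Signalling genes below the receptors also gave no call. Of 13 tested genes of the MyD88 pathway 0 changed in limma and 4 had an unadjusted p under 0.05, where the share over all genes was 21.3%, with a median log2 change of -0.13. One of the 4, Irak3, was under 1 FPKM in every Znf750_cKO library. It passed the filter through Control alone and could only fall. The most abundant gene of the list was the adaptor Tab2, which stood at 37.7 ± 3.79 FPKM in Znf750_cKO and 40.3 ± 3.16 FPKM in Control (SD, n = 3 each, log2 change -0.09). Of 15 tested genes of NF-kB and kinase signalling 0 changed and 2 had an unadjusted p under 0.05, with a median log2 change of 0.05. Nfkbia, the inhibitor that NF-kB induces, had 122, 89.1 and 193.5 FPKM in Znf750_cKO libraries and 81.7, 78.0 and 103.2 FPKM in Control libraries, where Znf750_cKO replicate 3 was highest and the groups overlapped (limma adjusted p = 0.33).

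Of 12 tested genes of cytokine processing and release, 0 rose, 2 fell and 10 did not pass, against 4.22% of all tested genes called, with a median log2 change of -0.38. An unadjusted p under 0.05 was found for 8 of the 12, against 21.3% of all tested genes. Of these, Aim2 stood higher in Znf750_cKO (log2 change 0.84, limma adjusted p = 0.062) and the rest lower. Ctss, a lysosomal protease reported to cleave human IL-36 gamma and also in the Langerhans cell list, had 2.77, 3.55 and 3.50 FPKM in Znf750_cKO libraries, against 42.3, 25.5 and 25.6 FPKM in Control libraries (log2 change -2.88, limma adjusted p = 0.00065). Casp8, a protease of cell death that can also process IL-1 beta, had 11.9, 12.1 and 10.0 FPKM in Znf750_cKO libraries, against 18.9, 16.9 and 16.0 FPKM in Control libraries (log2 change -0.57, limma adjusted p = 0.045). The call of Casp8 was lost in each of the 6 fits that left out a library (adjusted p 0.0673 to 0.158) and under TPM, median-ratio and upper-quartile scaling, whereas Ctss passed in all of them. The part of Langerhans cells and macrophages, whose marker sums are given above, in the level of Ctss was not tested.

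Among genes that keratinocytes are known to induce under IL-1 or IL-36, S100a9 and Sprr2d rose. Of 35 listed genes 15 passed the filter, of which 2 rose, 0 fell and 13 did not pass, against 4.22% of all tested genes called. An unadjusted p under 0.05 was found for 7 of the 15, against 21.3% of all tested genes. One of the 7, Cxcl10, was under 1 FPKM in every Znf750_cKO library. It passed the filter through Control alone and could only fall. The median log2 change of the 15, -0.03, came from genes on both sides, among them Cxcl16 at -0.79 and Krt6b at 2.69. Krt6b, a keratin of stressed epidermis with near-identical relatives that make its own level uncertain, stood at 44.6, 51.4 and 122.3 FPKM in Znf750_cKO libraries and at 5.69, 13.8 and 10.04 FPKM in Control libraries (limma adjusted p = 0.058). Cxcl16, a chemokine, stood at 7.44, 5.81 and 10.6 FPKM in Znf750_cKO libraries and at 17.6, 13.2 and 12.1 FPKM in Control libraries (limma adjusted p = 0.090). Neither group of values overlapped the other in these genes. Without Znf750_cKO replicate 3 both passed, with a log2 change of 2.24 for Krt6b (adjusted p = 0.041) and -0.995 for Cxcl16 (adjusted p = 0.040). Of the other keratins listed, Krt6a had a log2 change of 1.51 (limma adjusted p = 0.16) and Krt16 of -0.27 (limma adjusted p = 0.66). S100a9, an antimicrobial calcium-binding protein, had 8.95, 6.10 and 10.2 FPKM in Znf750_cKO libraries, against 1.45, 2.92 and 2.77 FPKM in Control libraries (log2 change 1.48, limma adjusted p = 0.019). Sprr2d, a cornified envelope precursor with near-identical relatives that make its own level uncertain, had 40.0, 44.1 and 77.7 FPKM in Znf750_cKO libraries, against 13.95, 18.6 and 15.8 FPKM in Control libraries (log2 change 1.63, limma adjusted p = 0.024). Both S100a9 and Sprr2d were higher in every Znf750_cKO library than in any Control library. S100a9 lost its call without Control replicate 1 (adjusted p = 0.057) or Znf750_cKO replicate 1 (0.088). Sprr2d lost it without Control replicate 1, 2 or 3 or Znf750_cKO replicate 2 (adjusted p 0.0562 to 0.107). Csf2 and Defb4 were listed at 0 in all 6 libraries.

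**Figure D5:**
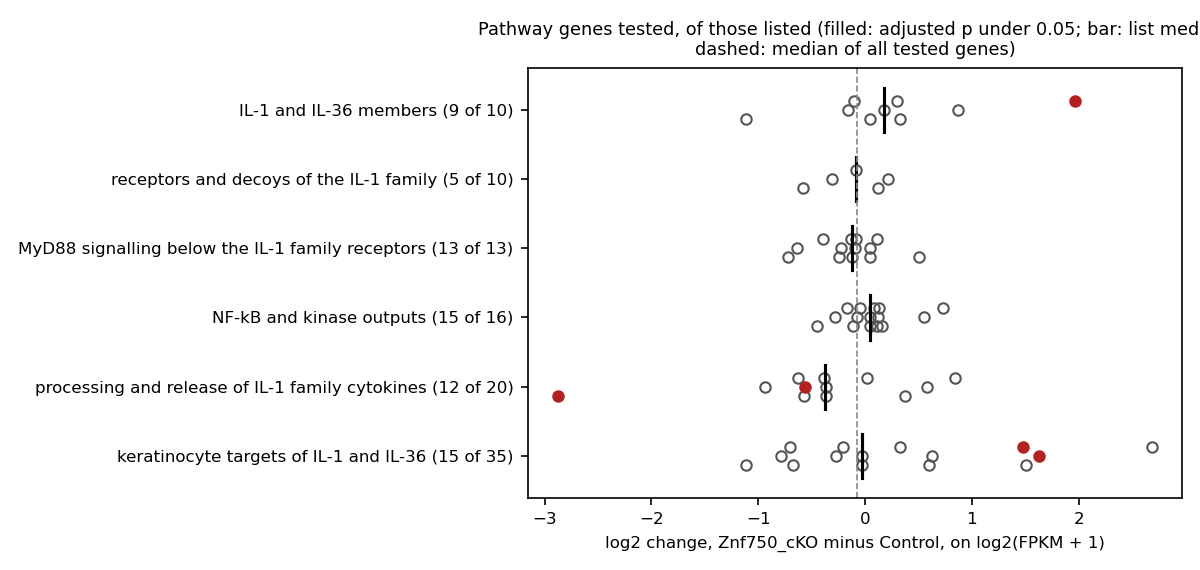
Log2 change, Znf750_cKO minus Control, of every tested gene of the members and of 5 pathway lists, with the number tested of the number listed; filled points have a limma adjusted p under 0.05, bars are list medians and the dashed line is the median of all tested genes. Filled points are Il1f6, Ctss, Casp8, S100a9 and Sprr2d, and the list medians lie between -0.38 and 0.18.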

How the data were processed

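Per the file headers, the authors deposited 1 FPKM value for each Ensembl gene and library. The submitters' processing notes name the trimmers cutadapt 1.15 and Trim Galore 0.4.5, the aligner STAR 2.5.2a, the quantifier RSEM 1.2.28 and DESeq2, and the builds GRCm38 and mm10, without roles. Per the labels' protocols the libraries were poly(A)-selected and read as 100-nucleotide single reads. The sources do not state strand, so reads of overlapping antisense genes are not separated. Symbols matched 55141 of 55487 identifiers.

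FPKM were analysed here on the log2(FPKM + 1) scale in limma 3.58.1 (R 4.3.3, statmod 1.5.0), with a trended prior and robust variances and no term besides group. The 13688 genes that reached 1 FPKM in 3 or more libraries entered the fit. Benjamini-Hochberg adjustment ran over all of them, with calls at an adjusted p under 0.05. The script was tested on simulated data. Deviations from group means correlated at 0.31, 0.17 and 0.48 between libraries that share a replicate number, each over 0.1. Between libraries of unlike number the correlations ran from -0.39 to 0.24. Znf750_cKO replicate 2 correlated more with Control replicate 1, at 0.24, than with Control replicate 2, at 0.17. The number was thus taken as a possible pair, used as a block in an alternative fit and not in the main fit. This pairing comes from the values and not from the labels.

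Depth was estimated from steps in the FPKM of short genes with 1 transcript, where 72.0% to 79.3% of values lay at most 0.1 read from a whole number and chance gives 20%. Read numbers from it cover counting error only and entered no test. The members and lists were chosen with earlier results of these data known. From each pathway list the text names the genes that changed, or else the most abundant. Sigirr, Irak3, Csf2, Defb4, Il15, Il10ra, Il34, Csf1r, Krt6a, Krt6b, Krt16, Aim2, Cxcl10, Cxcl16, Tslp, Hba-a2, Ptprc and Chga were named after their values were seen. Plots used Python 3.11.15 and matplotlib 3.10.9.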

Additional observations from a re-analysis of the deposited data

How the results depend on the processing

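The count of changed genes over all genes tested, 577, was 85 with no filter on low values, 279 under upper-quartile scaling, 1379 with sample weights, 226 without replicate 3 of both groups and 99 to 395 with 1 library left out. Of the members, 0 changed with no filter, under upper-quartile scaling or with the replicate block, 3 with sample weights (Il1f6, Il1f9 and Il1a) and 0 to 2 with 1 library left out; without replicate 3 of both groups the 1 call was Il1a, lower. The block took the count over all genes to 392, of which 332 were called in both fits; among the members and pathway genes named, only the call of Il1f6 was lost. Il1f6 passed in 8 of 12 other settings, with log2 changes between 1.68 and 2.08.

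For the MyD88 list the count was 1 with no trend and 1 with sample weights, and for the NF-kB list 2 with sample weights and 0 to 1 with 1 library left out. For the processing list it was 1 with no filter, a filter at FPKM 0.1, TPM, median-ratio or upper-quartile scaling, no trend, or without replicate 3 of both groups, 4 with sample weights and 1 to 2 with 1 library left out. For the target list it was 0 with no filter, 1 under upper-quartile scaling, 5 with sample weights and 0 to 5 with 1 library left out. It was 3 with a filter at FPKM 0.1 (26 genes tested), with no trend and without replicate 3 of both groups.

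Sign changes arose only in genes that did not pass. Without replicate 3 of both groups the log2 change was 0.0635 for Il1rn, -0.408 for Il1f8, -0.169 for Il18 and -0.198 for Il1f10. With 1 library left out it ran from -0.217 to 0.388 for Il1f8, -0.0222 to 0.556 for Il18, -0.281 to 0.0359 for Il33 and -0.0633 to 0.279 for Il1f10. Tab2 gave 0.00307 under upper-quartile scaling. The cause of these shifts was not tested. The median log2 change of all genes lay between -0.0938 and 0.0109 over all settings. Settings for single pathway genes were applied after the data had been seen. With 3 libraries a group and about 6 to 29 reads, Il1b could not be resolved.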

Other observations

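Other genes of interleukins and their receptors, taken as every tested gene whose symbol begins with Il and a digit and is not a member, numbered 26, of which 0 rose, 2 fell and 24 did not pass, against 4.22% of all tested genes called. Both that fell were under 1 FPKM in every Znf750_cKO library and passed the filter on low values through Control alone, so they could only be called lower and the count supports nothing. Il15, a cytokine that sustains lymphocytes, had 0.34, 0.91 and 0.55 FPKM in Znf750_cKO libraries, against 2.59, 2.05 and 2.19 FPKM in Control libraries (log2 change -1.05, SE 0.19, limma adjusted p = 0.028). Il10ra, a receptor chain of leukocytes, had 0.17, 0.20 and 0.09 FPKM in Znf750_cKO libraries, against 1.77, 1.15 and 1.13 FPKM in Control libraries (log2 change -1.02, SE 0.19, limma adjusted p = 0.030). Il34, a keratinocyte ligand of the receptor encoded by Csf1r that maintains Langerhans cells, had 6.00, 15.9 and 7.37 FPKM in Znf750_cKO libraries and 22.9, 28.5 and 28.8 FPKM in Control libraries (log2 change -1.47, limma adjusted p = 0.071), with groups that did not overlap. Of the 3 fits without 1 library in which each still met the filter, Il15 passed in 1 and Il10ra in 0, with adjusted p-values up to 0.108 for Il15 and 0.106 for Il10ra. With the replicate block both calls were lost (adjusted p = 0.0619 for Il15 and 0.0577 for Il10ra). Csf1r itself had 1.69, 0.98 and 2.10 FPKM in Znf750_cKO libraries, against 17.3, 10.7 and 8.78 FPKM in Control libraries (limma adjusted p = 0.0059). The Langerhans cell and macrophage markers fell in the same libraries, as did Hba-a2, Ptprc and Chga. The part of such cells in these levels was not tested.

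Tslp, an epithelial cytokine of the target list that was under the filter on low values and was picked after its values were seen, had 1.70, 0.99 and 1.18 FPKM in Znf750_cKO libraries and 0.03, 0.27 and 0.21 FPKM in Control libraries. With no filter its limma adjusted p was 0.14. With a filter at FPKM 0.1, 3 of 26 tested genes of the target list rose, and the result of Tslp itself there is not given here.

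Across the 6 libraries, on log2(FPKM + 1), the genes whose pattern was most like that of Il1f6 were Syvn1, Inhbb and Fam84b, at Pearson correlations of 0.988, 0.987 and 0.986. Inhbb, which encodes an activin subunit, had 3.93, 3.64 and 4.65 FPKM in Znf750_cKO libraries and 1.85, 2.53 and 1.67 FPKM in Control libraries (limma adjusted p = 0.053). For Il1f5, the most abundant member, the nearest were Aldh16a1, Kcnj12 and Desi1, at 0.988, 0.977 and 0.977. Each was picked for the highest correlation over all other tested genes with a symbol and a mean of at least 2 FPKM. The libraries also differ in group and in depth, so these correlations are descriptions.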
